A study of Mus musculus with 79 samples.

Results

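Expression of 7 forkhead transcription factor genes was followed in the tail end of the mouse embryo: Foxc1 and Foxc2, Foxf1 and Foxf2, Foxb1, and Foxd1 and Foxd3. They were chosen by name from the 23983 gene symbols of the deposited expression tables, and all 7 have a row in each of the 3 tables. The series asks how T (Brachyury) and Sox2, with Tbx6, steer neuro-mesodermal progenitors, the caudal cells that form both spinal cord and trunk mesoderm. The RNA data are 9 bulk libraries and 53 single cells, out of 79 samples in the series, and every embryo was grown entirely from embryonic stem cells by tetraploid complementation.

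The sorted cells came from pooled caudal ends. The first table holds T+, T+ Sox2+ and Sox2+ cells of wild-type (WT) C57BL/6N embryos at Theiler stage (TS) 12, with RNA from about 2500 cells each and TotalScript libraries. The second holds T+ cells of WT C57BL/6N and T knockout embryos (T KO, genotype T2J/2J, strain given as C57BL/6J) at TS12 and TS13, with RNA from about 20000 cells and ScriptSeq libraries after ribosomal RNA depletion. The same table holds a pair of Tbx6+ libraries of C57BL/6J embryos at TS14. One of that pair is titled WT and the other Tbx6 KO, but their source names state the opposite genotypes, so both are called by title here. The third table holds single T+ Sox2+ cells, taken from WT C57BL/6N embryos at TS13 and caught on a Fluidigm chip. T+ Sox2+ cells are called double-positive below. Each bulk group is 1 library, so no bulk difference has a replicate error. The T+ WT library of TS12 in the second table stood apart in genes that trunk cells should not use, and the Foxc1 and Foxf1 calls in T KO cells are also given without it. The WT stage comparison and the counts over gene lists in the T KO comparison use it throughout. Strain differs together with genotype between T KO and WT, and the effects of strain and genotype cannot be told apart.

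Forkhead factors bind DNA through a winged helix domain, and the paralogs studied here mark different descendants of the caudal embryo. Foxc1 and Foxc2 act together in presomitic mesoderm and somites. Foxf1 and Foxf2 belong to the lateral and splanchnic mesoderm that lines the gut and forms its mesenchyme. Foxb1 is a gene of the neural tube and of caudal progenitors, Foxd1 is best known from the forebrain and from kidney stroma, and Foxd3 from the epiblast and the neural crest.

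The promoters of Foxc1 and Foxd1, which differed in opposite directions between T+ and Sox2+ cells below, are shown first. The promoter sequences at hand (RefSeq, build GRCm38.p6) covered 4 of the 7 genes: Foxc1, Foxd1, Foxd3 and Foxf2. The lines give the 250 bases before the transcription start on the plus strand, Foxc1 at chr13:31806396-31806645 and Foxd1 at chr13:98353995-98354244, with CpG dinucleotides in capitals.

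Foxc1: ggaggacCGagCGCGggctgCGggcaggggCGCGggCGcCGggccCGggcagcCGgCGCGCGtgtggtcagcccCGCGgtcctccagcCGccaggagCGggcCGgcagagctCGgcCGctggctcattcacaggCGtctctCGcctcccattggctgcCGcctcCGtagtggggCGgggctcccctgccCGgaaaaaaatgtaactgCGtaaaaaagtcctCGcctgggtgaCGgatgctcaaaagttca

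Foxd1: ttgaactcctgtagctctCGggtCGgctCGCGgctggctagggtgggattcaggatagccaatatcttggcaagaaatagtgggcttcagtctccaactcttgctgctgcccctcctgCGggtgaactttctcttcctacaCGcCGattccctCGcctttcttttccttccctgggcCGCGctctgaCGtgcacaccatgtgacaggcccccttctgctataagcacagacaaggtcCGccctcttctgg

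The Foxc1 window held 29 CpG dinucleotides and 70.8% G or C, and the Foxd1 window 12 and 57.2%, against medians of 6 and 52% over 27025 promoter windows of this length. Foxd3 and Foxf2 held 21 CpG dinucleotides each. Short motif cores were searched on both strands: GTGTGA for T-box factors, TAAACA for forkhead factors, ACAATG for SOX factors and CTTTGA for TCF/LEF factors. None of these letters was present in any of the 4 windows. They were present in 12.2%, 12.03%, 11.0% and 14.1% of all windows, so their absence from 4 windows says nothing about these factors.

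Levels are given in FPKM, a fragment count scaled to transcript length in kilobases and to library size in M fragments. Differences are of log2(FPKM + 1), which understates the change of low genes. A gene was called higher or lower when that difference was at least 1 in size (2-fold on this scale) and 1 of both libraries had at least 5 FPKM. Depth recovered from the values, which may include scaling between libraries, was 20.8 to 43.5 M fragments per bulk library. Intervals of single levels are 95% Poisson intervals of the fragment counts. Intervals of ratios between libraries are 95% exact binomial intervals, conditional on the fragments of both libraries together. Both kinds cover counting error only. In bulk samples fewer cells of a type and less RNA per cell cannot be told apart.

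In the sorted TS12 cells, Foxc1, Foxc2 and Foxf1 were highest in T+ cells and lowest in Sox2+ cells, and Foxd1 had the opposite order. Foxc1 stood at 33.7 FPKM in the T+ fraction, against 19.8 for double-positive and 2.65 for Sox2+ cells. Its paralog Foxc2 had levels of 27.5, 12.1 and 1.32 FPKM in that order. Both Foxc genes thus stood far above the Sox2+ level already in the double-positive cells.

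Foxf1 stood at 24.4 FPKM in the T+ fraction, against 3.29 for double-positive and 0.851 for Sox2+ cells. The double-positive cells, which held much of the Foxc level, lay nearer to the Sox2+ than to the T+ level of Foxf1 on the log2 scale. Foxf2 was low in all 3 fractions, at 2.34, 1.38 and 1.52 FPKM.

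Foxb1, the most abundant of the 7 in double-positive and Sox2+ cells, stood at 33.5 and 33.2 FPKM there, against 17.3 in the T+ fraction. The ratio between the double-positive and Sox2+ fractions was 1.01-fold with a counting interval of 0.957 to 1.07, and both stood above the T+ fraction. Foxd1 was at 1.11, 5.58 and 8.05 FPKM in the same 3 fractions, lowest in T+ cells. Foxd3 was at 0.634 FPKM in Sox2+ cells, 0.0146 in the T+ fraction and listed at 0 in double-positive cells. At the RefSeq transcript length these values correspond to 43, 1 and 0 fragments.

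**Figure D1:**
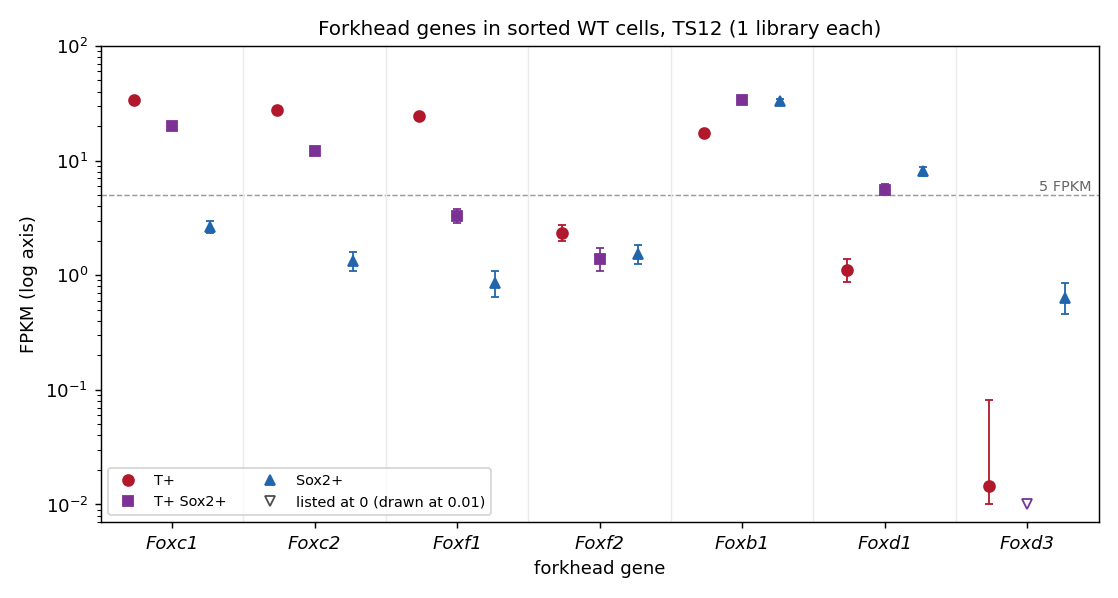
FPKM (log axis) of the 7 forkhead genes in the T+, T+ Sox2+ and Sox2+ libraries of WT TS12 embryos. Points are single libraries, bars are 95% Poisson counting intervals (drawn no lower than 0.01 FPKM), and the dashed line marks 5 FPKM. Foxc1 (33.7, 19.8 and 2.65 FPKM), Foxc2 and Foxf1 are highest in T+ cells, and Foxd1 (1.11, 5.58 and 8.05 FPKM) is highest in Sox2+ cells.

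Set against Sox2+ cells, 3 of the 5 forkhead genes past the minimum were called higher in T+ cells and 1 was called lower, where 3.61% of the 8608 genes compared were higher and 3.21% lower. Foxf1 differed by 3.78 (log2), a 28.7-fold ratio of FPKM with a counting interval of 22.1 to 37.8. Foxc2 differed by 3.62 (20.8-fold, 17.1 to 25.6) and Foxc1 by 3.25 (12.7-fold, 11.3 to 14.3). Foxd1 was lower by a difference of -2.10, and Foxb1 by -0.90, which was short of a call.

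Between T+ Sox2+ and Sox2+ cells, 2 of 4 forkhead genes past the minimum were called higher and 0 lower, against 1.52% and 1.41% of 8501 genes. These were Foxc1, with a difference of 2.51 (7.49-fold, 6.63 to 8.48), and Foxc2, with 2.49 (9.12-fold, 7.41 to 11.3). Foxf1 differed by 1.21 (3.87-fold, 2.87 to 5.28) and was not called because neither library was at 5 FPKM. Foxd1 differed by -0.46 and Foxb1 by 0.02. In double-positive cells Foxd3 was at least 11.7-fold lower, taking 3 fragments as the floor.

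Between T+ Sox2+ and T+ cells, 1 of 5 forkhead genes past the minimum was called higher and 2 lower, against 1.29% and 1.85% of 8509 genes. Foxd1 was higher by 1.64 (5.02-fold, 3.92 to 6.51). Foxf1 differed by -2.56, which is 7.41-fold lower (6.36 to 8.66), and Foxc2 by -1.13, which is 2.28-fold lower (2.099 to 2.48). The Foxc1 difference was -0.73 and that of Foxb1 0.91. These 3 comparisons share their libraries and are not independent of each other.

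The fractions differed in more than forkhead genes. T RNA was at 141 FPKM in T+, 341 in double-positive and 192 in Sox2+ cells. Sox2 RNA was at 2.82, 16.4 and 50.5 FPKM in that order. The Sox2+ fraction was thus not free of T RNA. T+ cells held more blood and vessel RNA: 12 of 12 genes of the endothelium and blood list past the minimum were called higher than in Sox2+ cells, with a median difference of 3.25 against 0.01 over all genes. The summed level of that list was 12144 FPKM for T+, 174 for double-positive and 250.1 for Sox2+ cells, and none of its 16 genes was at 0 in any of them. Hba-x, an embryonic globin, stood at 5119 FPKM in the T+ and 40.6 in the double-positive fraction. The part of these cells in the forkhead differences was not tested.

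Mesoderm and neural lists stood as follows beside the forkhead genes. Against Sox2+ cells, T+ cells were called higher for 9 of 10 lateral and splanchnic mesoderm genes (median 3.17), among them the limb and lateral plate factors Tbx4 (3.60), Hand2 (3.59) and Prrx1 (3.41). They were called higher for 9 of 13 paraxial mesoderm genes and lower for 1 (median 1.78), and higher for 3 of 5 intermediate mesoderm genes and lower for 1 (median 2.16). Of 11 neural tube genes, 8 were called lower and 0 higher (median -1.71), among them Sox1, Sox3 and Sox2, on which cells were sorted. T+ Sox2+ cells, in contrast, were called higher than Sox2+ cells for 9 of 12 paraxial genes (median 1.63) and for 0 of 3 lateral genes. Foxc1 and Foxc2 were called higher in both of these comparisons, and Foxf1 in that of T+ cells. In T+ Sox2+ cells Foxf1 was also higher than in Sox2+ cells (3.87-fold), but under the minimum for a call.

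Of the neural crest list, which bears on Foxd3, 2 of 12 genes were past the minimum between T+ and Sox2+ cells, and both were called higher in T+ cells: Msx2 (1.22) and Snai2 (1.19). Sox10, a defining neural crest factor, was at 0.529 FPKM in Sox2+ cells and listed at 0 in the T+ and double-positive fractions. Foxd3 and Sox10 were both highest in the Sox2+ fraction and both under 1 FPKM there. The list as a whole had no single direction. Its summed level was 33.3 FPKM in T+, 22.0 in double-positive and 20.3 in Sox2+ cells. Its median was 0.663, 0.480 and 1.15 FPKM in that order.

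In the knockout table Foxc1 and Foxf1 were lower in T KO than in WT cells at both stages. The targeted gene was checked first: T was at 69.8 FPKM in WT and 4.61 in T KO at TS12, and at 76.4 and 3.32 at TS13. Foxc1 was at 10.4 FPKM in WT and 2.75 in T KO cells at TS12, and at 12.4 and 4.64 at TS13. Foxf1 was at 38.8 and 17.5 FPKM at TS12, and at 37.0 and 13.7 at TS13. Both genes were lower in each T KO library than in either WT library.

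Foxc2 was low in this table, at 2.26 FPKM in WT and 0.318 in T KO cells at TS12 and at 3.66 and 1.66 at TS13. Foxf2 was at 2.75 and 2.13 FPKM at TS12, and at 3.03 and 1.30 at TS13. Neither reached the minimum of 5 FPKM, so neither could be called. The Foxf2 ratio at TS12 was 1.29-fold lower in T KO cells with a counting interval of 0.996 to 1.68, which includes no change.

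Foxb1 was at 14.2 FPKM in WT and 16.9 in T KO cells at TS12, and at 16.1 and 19.2 at TS13. Foxd1 was at 2.52 and 1.45 FPKM at TS12, and at 2.55 and 1.75 at TS13. Foxd1, which tracked Sox2 in the sorted fractions, was thus lower in T KO cells at both stages. It was 1.74-fold lower at TS12 (counting interval 1.30 to 2.34) and 1.46-fold lower at TS13 (1.18 to 1.81). All these Foxd1 levels were under 5 FPKM, so it could not be called. Foxd3 was at 0.0192 FPKM (1 fragment) in WT cells at TS12 and listed at 0 in the other 5 libraries of the table.

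**Figure D2:**
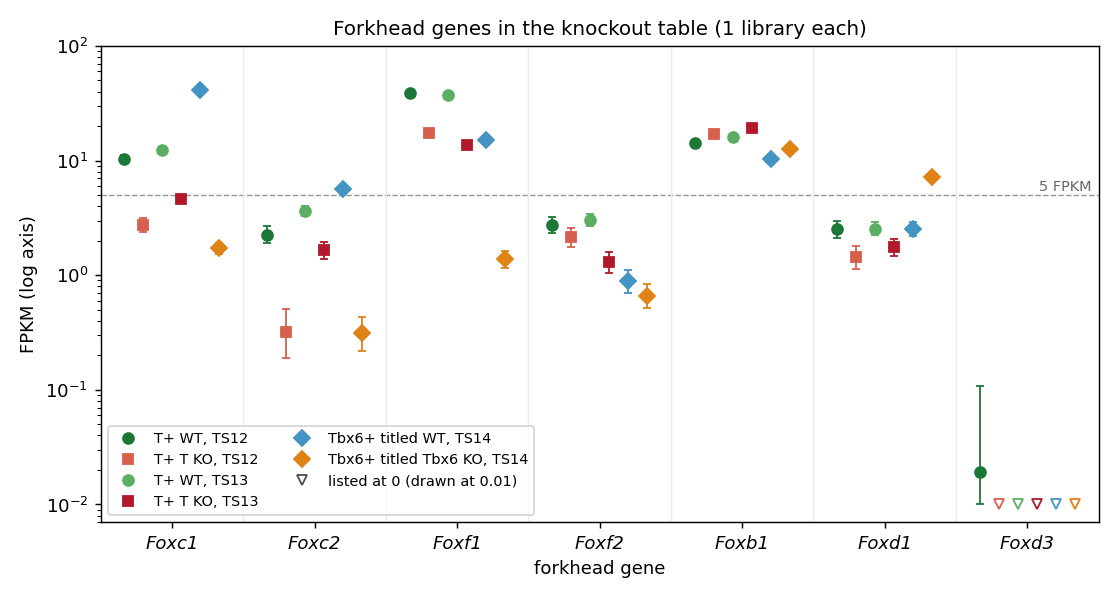
FPKM (log axis) of the 7 forkhead genes in the 6 libraries of the knockout table: T+ cells from either genotype at TS12 and TS13, plus the Tbx6+ pair at TS14. Points are single libraries, bars 95% Poisson counting intervals, and the dashed line marks 5 FPKM. Foxc1 and Foxf1 lie lower in T KO than in WT at both stages, while Foxb1 stays between 10.2 and 19.2 FPKM throughout.

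At TS12, 2 of 3 forkhead genes past the minimum were called lower in T KO cells and 0 higher, against 1.1% of 8100 genes lower and 0.975% higher. Foxc1 differed by -1.61, which is 3.79-fold lower (counting interval 3.28 to 4.40), and Foxf1 by -1.11, which is 2.22-fold lower (2.05 to 2.40). Foxc2 was 7.10-fold lower (4.33 to 12.3), on 18 fragments in T KO cells and 135 in WT cells. The TS12 WT library stood apart: 1031 of 1457 sensory receptor genes, which trunk cells should hardly transcribe, were above 0 in it, against 22 to 34 in the other 8 libraries. The median of these genes was 0.0949 FPKM and their 95th percentile 0.440 FPKM, which is above the single Foxd3 fragment and below the other 6 forkhead genes in that library. With the WT library of TS13 as the reference in its place, Foxc1 (-1.84) and Foxf1 (-1.04) were still called lower in T KO cells of TS12. The split of calls over all genes then moved from 79 higher and 89 lower to 50 higher and 112 lower.

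At TS13, 2 of 3 forkhead genes past the minimum were again called lower and 0 higher, against 1.47% of 8189 genes lower and 1.2% higher. Foxf1 differed by -1.37, which is 2.70-fold lower (2.52 to 2.89), and Foxc1 by -1.25, which is 2.68-fold lower (2.44 to 2.94). Foxc2 differed by -0.81 (2.21-fold lower, 1.82 to 2.70) and Foxf2 by -0.81 (2.32-fold lower, 1.84 to 2.96). Foxb1 differed by 0.24 at each stage.

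Over both stages together, a limma model with stage as a term tested 3 of the 7 genes, those with at least 5 FPKM in 1 of the 4 T+ libraries. Foxf1 fell by 1.24 (log2, SE 0.151, limma adjusted p = 0.00427) and Foxc1 fell by 1.43 (SE 0.202, limma adjusted p = 0.00935), each lower at both stages. Foxb1 differed by 0.24 (SE 0.147, limma adjusted p = 0.542). Thus 2 of 3 fell and 0 rose, where 0.616% of the 8441 genes tested fell and 0.462% rose. The model leaves 1 residual degree of freedom, the change of the genotype effect between stages, so its p-values do not measure the spread between embryos. Without the stage term the limma adjusted p was 0.158 for Foxc1 and 0.0588 for Foxf1, so neither call held. A fit without the T+ WT TS12 library gave differences of -1.55 for Foxc1 and -1.20 for Foxf1. That fit also lacked the stage term and left 1 WT library, so it cannot test the calls without that library alone.

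Among the other lists in this model, 7 of 10 paraxial mesoderm genes tested fell and 0 rose (median -1.81), including Msgn1, the presomitic mesoderm factor (-4.01), and Meox1, a somite homeobox factor (-2.12). Of 10 lateral and splanchnic mesoderm genes, 1 fell: Fendrr, the long noncoding RNA next to Foxf1 (-1.17, limma adjusted p = 0.0373). The other 9 gave no call, among them the lateral plate factors Hand1 (-0.22, limma adjusted p = 0.626) and Hand2 (-0.06, limma adjusted p = 0.911). Of 7 neural tube genes 1 rose (Sox3), and of 11 endothelium and blood genes 1 fell (Lmo2). Of the other forkhead genes limma tested 11 and called 0, with 4 at an unadjusted p under 0.05, and their median was 0.22 against -0.0037 over all genes. The summed level of the endothelium and blood list, whose Kdr is named beside Foxf1 below, was 874 FPKM in WT and 450.3 in T KO cells at TS12, and 2430 and 1858 at TS13. Its part in the Foxf1 difference was not tested.

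The stage comparisons gave no call among the forkhead genes. From TS12 to TS13 in WT cells, 0 of 3 past the minimum were called, against 1.01% of 8026 genes higher and 0.486% lower. The differences were 0.23 for Foxc1, -0.07 for Foxf1 and 0.17 for Foxb1. Scaling to a common upper quartile moved the split over all genes from 81 higher and 39 lower to 58 and 45. In T KO cells, 0 of 2 were called, against 0.735% of 8162 genes higher and 0.845% lower. Foxf1 differed by -0.33 and Foxb1 by 0.18. Foxc2 was 5.21-fold higher at TS13 in T KO cells (3.18 to 9.04), from 18 to 142 fragments, with both libraries under 2 FPKM.

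In Tbx6+ cells at TS14, the library titled Tbx6 KO held far less Foxc1, Foxc2 and Foxf1 than the library titled WT. Tbx6 itself was at 31.5 FPKM in the library titled WT and 10.2 in the one titled Tbx6 KO, which goes with the titles rather than the source names. Foxc1 was at 41.7 FPKM in the library titled WT and 1.71 in the one titled Tbx6 KO. The Foxc1 values are the highest and the lowest of the 6 libraries of the table.

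Foxc2 stood at 5.67 and 0.312 FPKM, again with the library titled WT first, and Foxf1 at 15.1 and 1.37. Foxd1 ran the other way, at 2.53 and 7.24 FPKM. Foxb1 was at 10.2 and 12.7 FPKM, Foxf2 at 0.889 and 0.661, and Foxd3 was listed at 0 in both.

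Of 5 forkhead genes past the minimum, 3 were called lower and 1 higher in the library titled Tbx6 KO, against 1.56% of 7941 genes lower and 2.54% higher. Foxc1 differed by -3.98, which is 24.4-fold lower (21.7 to 27.5). Foxf1 differed by -2.76 (11.0-fold lower, 9.24 to 13.1) and Foxc2 by -2.35 (18.2-fold lower, 13.0 to 26.1). Foxd1 was higher by 1.22 (2.86-fold, 2.46 to 3.35), and Foxb1 differed by 0.28.

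Beside these values, 8 of 12 paraxial mesoderm genes past the minimum were called lower in the library titled Tbx6 KO and 1 higher (median -1.29, Tbx6 itself among the lower), led by Pcdh19 (-4.05) and Meox1 (-3.32). Pax3, a factor of dorsal neural tube and dermomyotome, was the one higher (2.63). Of 12 axial progenitor genes 9 were called higher and 0 lower (median 1.50), among them Sox2 at 42.3 FPKM against 4.70. Lateral and splanchnic genes were called lower in 2 of 6. Of the endothelium and blood list, 3 of 6 were called higher and 2 lower, and the globin Hbb-y was at 175 FPKM against 0.0472. The part of blood cells in the forkhead differences was not tested.

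**Figure D3:**
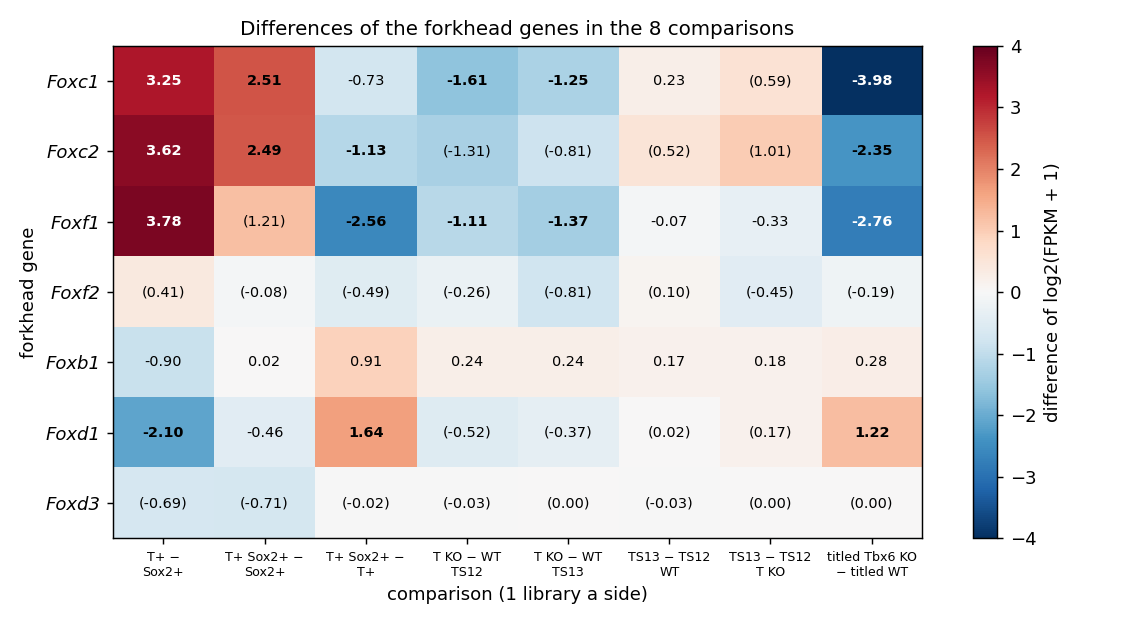
Differences of log2(FPKM + 1) of the 7 forkhead genes (rows) in the 8 comparisons (columns), each between 1 library and 1 other. Bold values were called, and values in parentheses had no library at 5 FPKM. Foxc1, Foxc2 and Foxf1 are above 0 against Sox2+ cells and below 0 in every knockout comparison; Foxb1 stays under 1 in size in all 8.

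Foxc1 and Foxc2 were the most alike of the 5 forkhead genes that reached 5 FPKM in a bulk library. Over the 9 libraries, with each table centred on its own mean per gene, their Pearson r was 0.95, and Foxc1 was the third most similar of 1089 genes to Foxc2. The genes most like Foxc1 were Mpzl2 (r = 0.98), Gzmk (0.97) and Meox1 (0.96), and those most like Foxc2 were Zcchc24 (0.96) and Meox1 (0.95). These correlations describe libraries that share sorts and controls, so no p is given.

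Foxf1 was most like 1700017B05Rik (r = 0.98), Kdr (0.97), the vascular endothelial growth factor receptor of vessel precursors, and Fendrr (0.97). Its r with Foxc1 was 0.66 and with Foxd1 -0.86. Kdr had levels of 8.77, 1.06 and 0.340 FPKM over the T+, double-positive and Sox2+ fractions, the same order as Foxf1. Foxd1 was most like Kcnab3 (0.96), Lypd6b (0.94) and Fbln2 (0.92), and Foxb1 most like Hook1 (0.97), Gyltl1b (0.96) and Spred3 (0.96).

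Foxf1 and Foxc2 are neighbours on mouse chromosome 8, with Fendrr, Foxf1, Mthfsd, Foxc2 and Foxl1 in that order (RefSeq GRCm38.p6, Foxf1 at 121084386 to 121088154 and Foxc2 at 121116171 to 121118895). Fendrr ends 1276 bases from Foxf1, and Foxc2 begins 28017 bases past it. Fendrr had levels of 6.33, 1.46 and 0.162 FPKM over the T+, double-positive and Sox2+ fractions, like Foxf1 in its order. Across the knockout table Fendrr was at 8.84 and 4.26 FPKM in WT and T KO cells at TS12, and at 10.8 and 3.38 at TS13. Mthfsd, a gene of folate metabolism that lies between the forkhead genes, stayed between 6.41 and 10.1 FPKM in all 9 libraries (limma difference for T KO -0.33, adjusted p = 0.497). Foxl1, the third forkhead gene of the cluster, did not exceed 0.454 FPKM in any bulk library. Fendrr, Foxf1 and Foxc2 thus shared their order over the sorted fractions, which Mthfsd between Foxf1 and Foxc2 did not show.

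**Figure D4:**
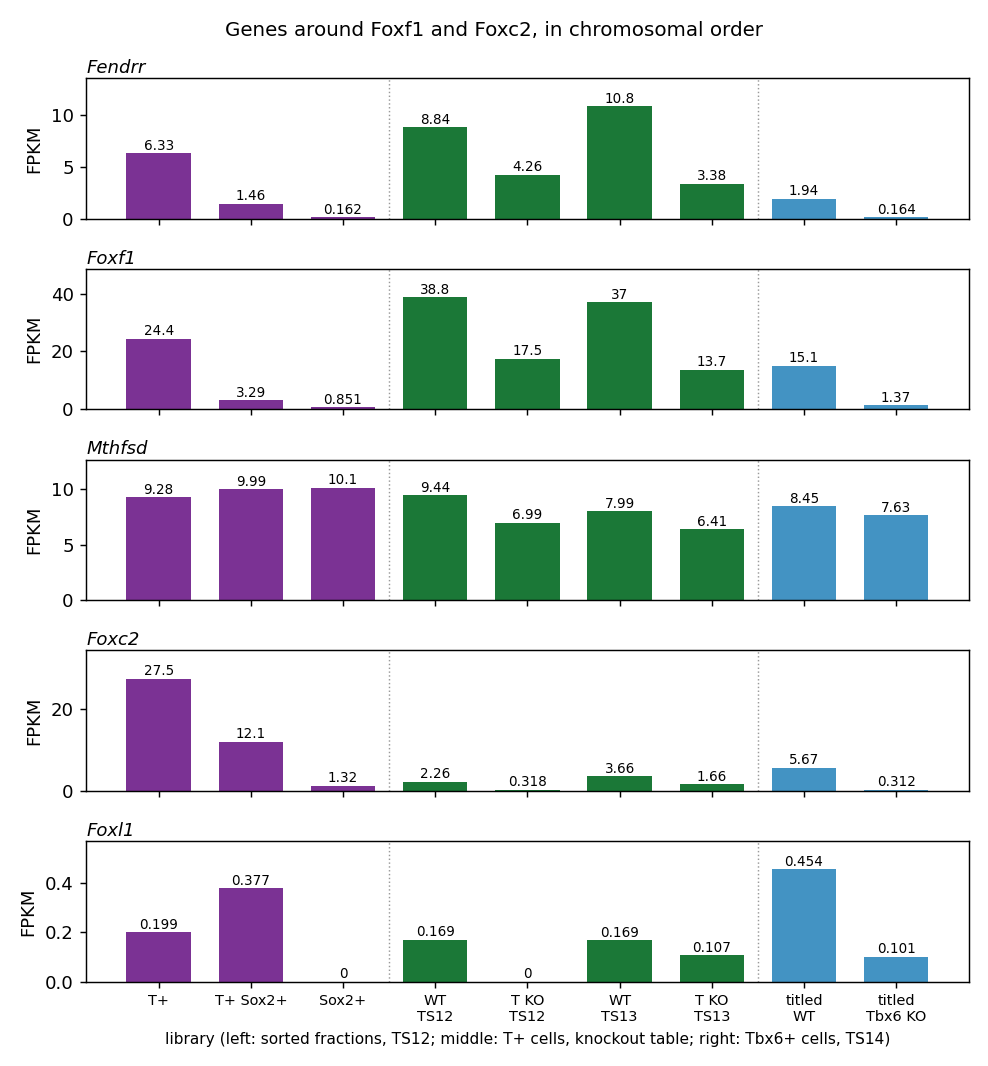
FPKM of Fendrr, Foxf1, Mthfsd, Foxc2 and Foxl1, stacked in chromosomal order, in the 9 bulk libraries (bars, 1 library each, linear axes from 0, separate scale for each gene). Fendrr and Foxf1 are lower in each knockout library than in its WT partner, and so is Mthfsd between the forkhead genes, within a range of 6.41 to 10.1 FPKM over the 9 libraries.

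The same arrangement of a Foxf and a Foxc gene is found on chromosome 13, where Foxf2 (31625816 to 31631406) and Foxc1 (31806646 to 31810635) lie in that order. Foxc1 stood above Foxf2 in every bulk library, and Foxf2 did not exceed 3.03 FPKM in any of them. On chromosome 8, Foxc2 stood above Foxf1 in the sorted fractions and below it in all libraries of the knockout table. Gmds, 8948 bases past Foxc1, had levels of 11.4, 10.9 and 7.62 FPKM over the same fractions, a smaller range than that of Foxc1. Foxb1 on chromosome 9 has the noncoding RNA B230323A14Rik 206 bases away, with 0.614, 3.99 and 4.24 FPKM over these fractions. Like Foxb1 it was lowest in the T+ fraction. Foxd1 lies on chromosome 13 (98354245 to 98356705) and Foxd3 on chromosome 4 (99656299 to 99658671). Btf3 near Foxd1 and Alg6 near Foxd3 were expressed in all 9 libraries, Alg6 between 3.70 and 7.65 FPKM.

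Of the 37 other forkhead genes in the tables, 12 reached 5 FPKM in a bulk library and 22 stayed under 1 FPKM in all 9. Foxh1, a partner of SMAD proteins in Nodal signalling, was called higher in the T+ than in the Sox2+ fraction (7.40 against 1.13 FPKM) and lower in the double-positive fraction than in T+ (0.597 FPKM). It was also called lower in T KO cells at TS12 (3.27 against 9.30 FPKM), a call that rests on the WT library that stood apart. The WT library of TS13 had 4.68 FPKM of Foxh1, under the minimum, and Foxh1 was not called at TS13 (-0.70) or in limma (adjusted p = 0.131). T+ cells were also called higher for Foxp4 (37.3 against 16.9 FPKM) and Foxo1 (6.84 against 2.72), and lower for Foxo4 (9.67 against 23.9). Foxp4 was called lower in the double-positive than in the T+ fraction, and Foxo4 higher in the library titled Tbx6 KO (54.3 against 25.4 FPKM). Between T+ and Sox2+ cells, 3 of 12 past the minimum were called higher and 1 lower, against 3.61% and 3.21% of all genes. In the double-positive fraction 2 of 12 were called lower than in T+ cells (1.85% of all genes) and 0 higher, and 0 of 10 were called against Sox2+ cells. In T KO cells 1 of 11 was called lower at TS12 (1.1% of all genes), and 0 of 10 were called at TS13. Between stages 0 of 10 were called in either genotype, and 1 of 8 was called higher in the Tbx6+ pair (2.54% of all genes).

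Single T+ Sox2+ cells of TS13 held Foxc1, Foxf1 and Foxb1 together. Foxf1 was at 1 FPKM or more in 46 of 53 cells (86.8%, exact Clopper-Pearson 95% interval 74.7% to 94.5%), with a median of 40.9 FPKM and a highest value of 124. Foxb1 was at 1 FPKM or more in 44 cells (83.0%, 70.2% to 91.9%), with a median of 25.6 FPKM and a highest value of 150. Foxc1 was so in 40 cells (75.5%, 61.7% to 86.2%), with a median of 9.80 FPKM and a highest value of 75.8. For each of the 3 genes the lowest value over cells was 0. These cells share 1 chip and count as 1 sample, the intervals cover the counting of cells only, and the depth of each cell is unknown.

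The other members were sparse. Foxd1 was at 1 FPKM or more in 10 cells (highest 17.996 FPKM), Foxf2 in 8 (highest 17.98) and Foxc2 in 7 (highest 40.2). Foxd3 was detected in 0 of 53 cells. Taking 3 cells as the limit that a count of 0 allows, the share of cells with detected Foxd3 is up to 5.66%, and the exact Clopper-Pearson upper limit is 6.72%. Both limit detection and not expression, since a gene can be present below detection.

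**Figure D5:**
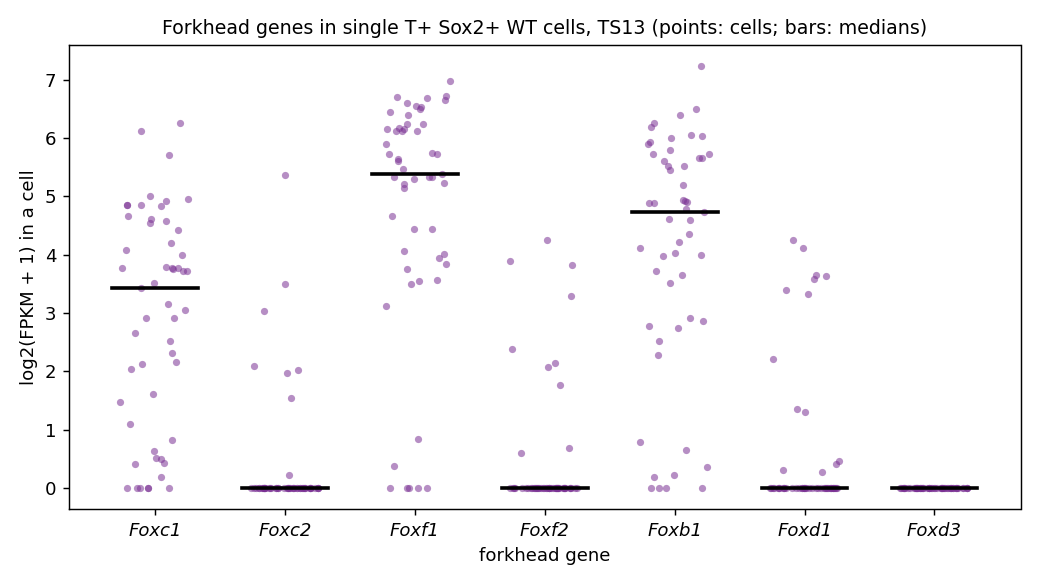
Values of log2(FPKM + 1) of the 7 forkhead genes in 53 single double-positive cells of TS13 (points, spread sideways for sight; black bars are medians over cells). Foxf1, Foxb1 and Foxc1 are found in most cells (46, 44 and 40), while the medians of the other 4 genes are 0.

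Most cells held Foxc1, Foxf1 and Foxb1 side by side. All 3 were at 1 FPKM or more in 33 of 53 cells, and only 1 cell had none of the 3. Each was found in at least 40 cells, so much overlap is given by these counts. Whether they were found together more often than that was not tested. Foxf1 was the highest of the 3 in 34 cells, Foxb1 in 13 and Foxc1 in 6. All 7 cells with Foxc2 also had Foxf1 and Foxb1, and 6 of them had Foxc1. All 10 cells with Foxd1 had Foxb1, and 9 had Foxf1.

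Markers in the same cells were read beside these counts. T was at 1 FPKM or more in 53 of 53 cells, and Sox2 and Tbx6 in 46 each. Globins Hba-x, Hbb-y and Hbb-bh1 were in 0 cells and the endothelial cadherin Cdh5 in 1, so defining markers of blood and vessels were at or near 0 here. Of other neural tube genes, Sox3 was in 22 cells, Pax6 in 11 and Sox1 in 5. Hand1 was in 36 cells, Hand2 in 21 and Osr1, a factor of intermediate and lateral mesoderm, in 34. Of paraxial genes, Msgn1 was in 15 cells. Meox1, among the genes most like Foxc1 and Foxc2 over the bulk libraries, was in 4. Of the 46 cells with Foxf1, 35 had Hand1, and of the 7 without Foxf1, 1 had it. This direction was not particular to Foxf1. Of the 44 cells with Foxb1, 32 had Hand1 and 32 Osr1, and of the 9 without Foxb1, 4 and 2 had them. The cells without Foxf1 also had fewer genes at 1 FPKM or more (median 4960, against 6086.5 in cells with it). Fendrr was in 16 of 53 cells, fewer than its neighbour Foxf1.

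The number of genes seen per cell moved with the forkhead counts. Cells had 4013 to 8864 gene symbols at 1 FPKM or more (median 5806). Among the 27 cells with the most genes, 27 had Foxf1, 24 Foxc1, 25 Foxb1 and 7 Foxc2. Among the other 26, 19 had Foxf1, 16 Foxc1, 19 Foxb1 and 0 Foxc2. Over the 53 cells, Pearson r with the number of genes was 0.52 for Foxf1, 0.29 for Foxb1 and 0.25 for Foxc1 (log2 values). Between the genes, r was 0.32 for Foxc1 and Foxb1, 0.16 for Foxc1 and Foxf1, and 0.13 for Foxf1 and Foxb1. These values are descriptions over cells that share 1 chip and differ in how many genes were seen, and how far the number of genes seen accounts for cells without a member was not tested.

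Levels of the T+ Sox2+ label can be set side by side but not compared, since stage, chemistry and normalization differ. Foxf1 was at 3.29 FPKM in the bulk T+ Sox2+ library of TS12 and at a median of 40.9 FPKM in the single cells of TS13. Foxc2 was at 12.1 FPKM in the former and at a median of 0 in the latter. Foxb1 was at 33.5 FPKM and a median of 25.6 FPKM.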

How the data were processed

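RNA-seq values of 9 bulk libraries and 53 cells were used as deposited. The authors gave them as FPKM, 1 value per gene symbol, in 3 tables read separately. TopHat2 2.1.0 and Cufflinks 2.2.1 are named for build mm10, per the submitters' processing notes. Cuffnorm and Cuffdiff are named as well, without a version. No source used here gives the annotation or the setting of the scaling between libraries. Count models do not apply to FPKM. Numbered gene models, small RNA genes, mitochondrial genes, ribosomal pseudogenes and joined symbols were left out of background counts, leaving 21584 symbols, and T, Sox2 and Tbx6 were left out as well. Fragments behind a value came from the whole-number steps of the FPKM (all member values within 0.05 of a whole number). Foxd3 counts assume the RefSeq length, and Foxf2 counts the shortest of the lengths that fit. The test was limma 3.58.1 (R 4.3.3), with its empirical Bayes trend, on log2(FPKM + 1), with Benjamini-Hochberg adjustment over all genes tested. It was tested on simulated data. All 7 forkhead genes were named. Other genes were named by rule: the 3 most similar genes per member at 5 FPKM or more, called forkhead genes, up to 3 leading genes per list, and chromosomal neighbours. Some list genes and markers were added after their values were seen. The forkhead genes and gene lists were chosen with earlier results of these data known.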

Additional observations from a re-analysis of the deposited data

Results flagged for a closer look

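Foxf2 changed with stage in opposite directions in the 2 genotypes. From TS12 to TS13 its difference of log2(FPKM + 1) was 0.10 in WT cells (2.75 to 3.03 FPKM) and -0.45 in T KO cells (2.13 to 1.30 FPKM). The difference between these changes was not tested, since each group has 1 library. The ratio in WT cells was 1.099-fold with a counting interval of 0.896 to 1.35, which includes no change, and in T KO cells 0.61-fold with an interval of 0.458 to 0.811. All 4 values were under 5 FPKM.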

How the results depend on the processing

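Under 70 alternative values of the 17 called forkhead differences, all kept their sign and 64 stayed at least 2-fold. A change of pseudocount cannot turn a sign. The sensory receptor median was 0 in all libraries but T+ WT TS12 of the knockout table. Subtracting it left comparisons without that library unchanged. The signs of these values were thus fixed in advance, and the unchanged values count among the 64. The 6 values under 2-fold arose with a pseudocount of 5 FPKM. With that pseudocount the number of forkhead genes called was 1 for T+ Sox2+ against T+ cells, 0 for T KO at TS12 and 1 for T KO at TS13. A minimum of 20 FPKM left fewer genes to call: 0 for T+ Sox2+ against Sox2+ cells, 1 for T KO at TS12, 1 at TS13, 1 in the Tbx6+ pair and 1 in limma. With no minimum, 1 (Foxc2) was called between stages in T KO cells. In limma 0 were called without the stage term. The count also moved without the T+ WT TS12 library, in a fit that lacked the stage term too and left 1 WT library. The other 49 counts stayed within 1.5 times their reported value. Within that margin, having no minimum added Foxf1 (higher) between T+ Sox2+ and Sox2+ cells and Foxc2 (lower) for T KO at TS12. The sign of the Foxd1 stage difference in WT cells, 0.02, turned to -0.04 under upper-quartile scaling. Counts over all genes moved by more than 1.5 times with the minimum and with a pseudocount of 5 FPKM: between T+ and Sox2+ cells, 311 higher and 276 lower became 189 and 155 with that pseudocount, 519 and 433 with no minimum and 112 and 96 at 20 FPKM. In limma, 39 genes that rose and 52 that fell became 132 and 132 under upper-quartile scaling. The stage term in limma pairs T KO with WT libraries by stage. No paired analysis was possible by replicate number because each bulk group has 1 library. Of the single libraries, only T+ WT TS12 was left out of the limma fit. Low members (Foxf2, Foxd3, Foxc2 in the knockout table) are limited by fragments.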
